A study of Mus musculus with 18 samples.

Results

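The 8 genes described here are the receptor tyrosine kinases Axl, Mertk and Tyro3, their ligands Gas6 and Pros1, the receptor Met with its ligand Hgf, and Mst1r, the receptor most closely related to Met. They were taken by gene symbol from the 51290 genes in the count table. Bulk poly(A) RNA was sequenced from 18 mouse samples in 3 groups of 6. The first group was malignant peripheral nerve sheath tumour (MPNST) with floxed alleles of Nf1 and Arf and a Postn-driven Cre (Nf1 flox/flox, Arf flox/flox, PostnCre+). The next was trigeminal nerve labelled plexiform neurofibroma, a benign nerve tumour, with floxed Nf1 and the same Cre (Nf1 flox/flox, PostnCre+). The last was trigeminal nerve labelled normal, with floxed Nf1 and no Cre (Nf1 flox/flox, PostnCre-). All 3 groups thus carry floxed Nf1, the gene of the RAS inhibitor neurofibromin, and Arf, a tumour suppressor of the Cdkn2a locus, was floxed in MPNST alone. The labels give no age or treatment and, for the MPNST, no body site. A Cre under the Postn promoter deletes floxed alleles in cells where that promoter is or was active, whereas the RNA is from whole tissue.

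Axl, Mertk and Tyro3 form the TAM family. Gas6 and protein S, the product of Pros1, bind phosphatidylserine on dying cells with a vitamin K-dependent domain and bridge it to a TAM receptor, so the family is best known for the uptake of dying cells and the damping of inflammation by macrophages. Gas6 binds all the TAM receptors, with the highest affinity for Axl, whereas protein S acts on Tyro3 and Mertk. Met binds hepatocyte growth factor, which Hgf encodes and mesenchymal cells secrete as an inactive precursor, and Mst1r (RON) binds the related macrophage-stimulating protein. These receptors signal through RAS, PI3K and adaptors such as Gab1, and Axl and Met are often found at high levels in invasive tumours.

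Library totals were 13886399 to 23652959 estimated counts in MPNST, 15307987 to 20056513 in neurofibroma and 14303986 to 20335697 in nerve. Nf1 was checked first, at 28.11 to 122.8 CPM (counts scaled to one common library total) in MPNST, 66.67 to 91.26 CPM in neurofibroma and 82.42 to 160.7 CPM in nerve. The highest MPNST value was that of the library labelled MPNST 6, within the nerve range, and whole-gene counts do not read the deleted exons. Cdkn2a, the locus that holds Arf, stood at 0.3144 to 692.0 CPM in MPNST, 3.54 to 8.583 CPM in neurofibroma and 0.2796 to 3.008 CPM in nerve. Its highest value, 692.0 CPM (16118 counts), was in MPNST library 4, against 9.76 to 11.31 CPM in libraries 1, 3 and 5, 1.437 CPM in library 2 and 0.3144 CPM (6 counts) in the library labelled MPNST 6. Counts over the whole locus do not separate Arf from its other products, so neither gene settles whether these labels are right. Some libraries held transcripts of other tissues. Salivary gland genes took 40.52% of the counts of MPNST library 2, skeletal muscle genes 5.447% of MPNST library 3, and sympathoadrenal and pancreatic acinar genes 0.5015% and 0.4335% of the library labelled MPNST 6. Outside MPNST, skeletal muscle genes took 0.1906% of neurofibroma library 1 and 0.05077% of nerve library 3, and sympathoadrenal genes 0.07582% of nerve library 6. Results on MPNST are also given without library 2, for its salivary share, and without the library labelled MPNST 6, for its Nf1 and Cdkn2a levels. Library 4, with the highest Cdkn2a, was kept in those fits. Libraries 2 and 6, left out there, were also the lowest of their group in Axl and Pros1. Leaving out library 3 as well gave the same number of called members. These were 5 against neurofibroma, beside 62.83% of all genes tested, and 4 against nerve, beside 62.39%. The neurofibroma and nerve samples come from an earlier series and from trigeminal nerve, so in both comparisons with MPNST the tumour type, the tissue sampled and the series cannot be told apart. The Schwann cell markers Sox10 and S100b were detected in every library. S100b stood at 0.9431 to 77.54 CPM in MPNST against 1331 to 1714 CPM in neurofibroma. Sox10 overlapped between the groups, at 5.324 to 247.7 CPM in MPNST, 129.0 to 256.9 CPM in neurofibroma and 69.39 to 167.6 CPM in nerve. In bulk RNA, fewer cells of a type and less RNA per cell cannot be told apart. The labels do not say that the neurofibroma and nerve samples are separate animals, so p-values there measure the spread between these samples.

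Axl and Pros1 rose in neurofibroma against nerve, and rose again, with Met, in MPNST, while Tyro3 fell in MPNST. In neurofibroma against nerve 2 of the 8 genes were called (edgeR quasi-likelihood test, Benjamini-Hochberg adjusted p below 0.05), both higher, beside 13.9% of all 16464 genes tested (7.94% higher and 6.00% lower). In MPNST against neurofibroma 4 of the 8 were called, 3 higher and 1 lower, beside 42.0% of 16537 genes (25.3% higher and 16.8% lower). In MPNST against nerve the count was again 4, with 3 higher and 1 lower, beside 46.0% of 16384 genes (27.6% higher and 18.4% lower). The members' shares in the comparisons with MPNST are thus near those of all genes. Among all called genes, 60.1% were higher in MPNST in each of these comparisons, a share that was 48.3% against neurofibroma and 49.5% against nerve with limma-voom. The median log2 change of all genes was -0.02 in neurofibroma against nerve and 0.22 in both comparisons with MPNST (-0.01 in both with limma-voom). The direction of each of these 10 calls of members was the same under every scaling. All 8 genes passed the filter on low counts in each comparison. Both comparisons with nerve share the nerve samples, both with neurofibroma share the neurofibroma samples, and both with MPNST share the MPNST samples.

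**Figure D1:**
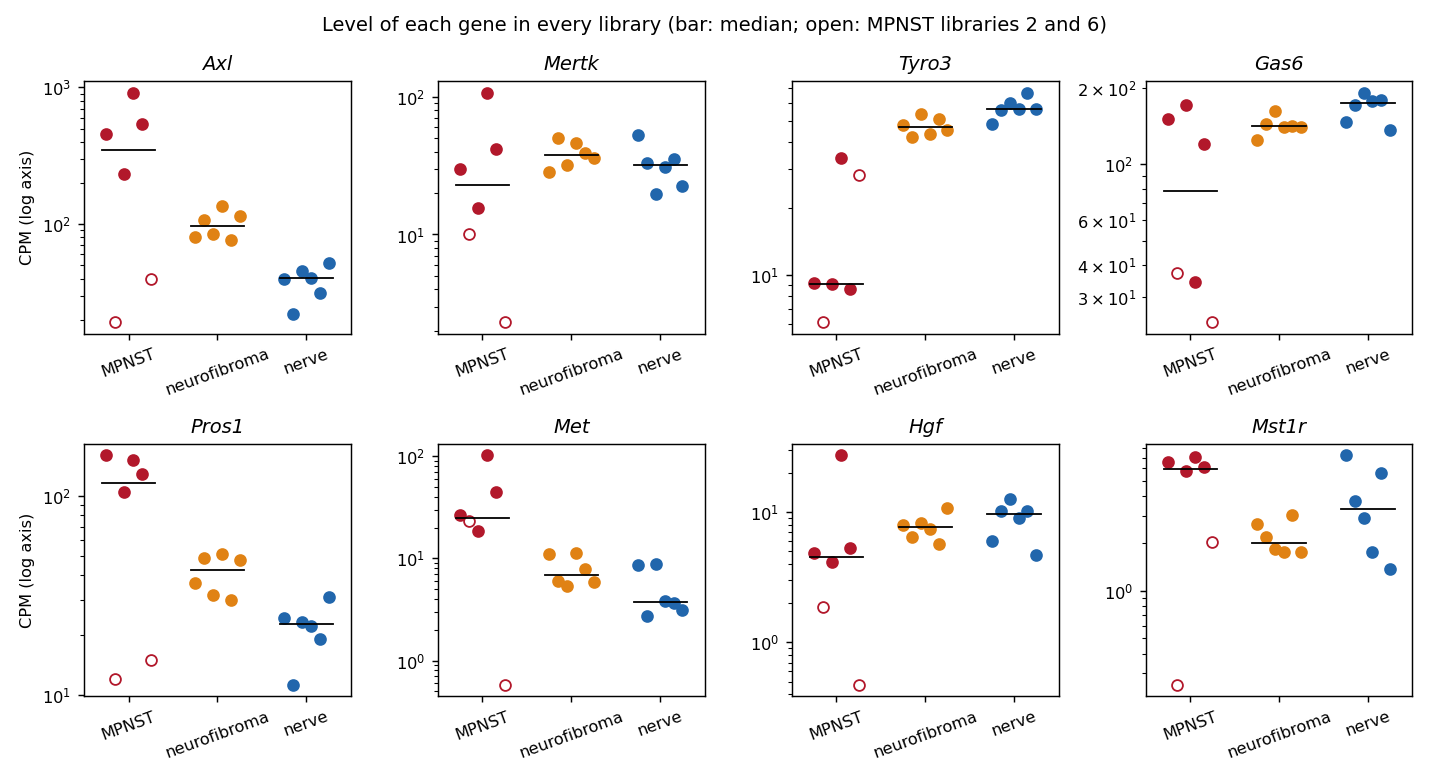
CPM on log axes for each of the 8 genes, 1 point per library with the group median as a bar, for MPNST, neurofibroma and nerve, with MPNST libraries 2 and 6 as open points. Axl separates neurofibroma (76.06 to 134.6 CPM) from nerve (21.88 to 51.99 CPM), Tyro3 lies lower in all 6 MPNST libraries than in any other library, and the MPNST points spread most in every panel.

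The stretches upstream of the start sites of the genes with calls are shown because 3 of them rose and 1 fell in the same tumours. Each is the 250 bases before the RefSeq start (GRCm38.p6, read 5′ to 3′ on the gene's own strand, a build other than the GRCm39 of the submitters' processing notes). Axl lies on the minus strand at chr7:25788734-25788983, and the others on the plus strand, Pros1 at chr16:62854057-62854306, Met at chr6:17463707-17463956 and Tyro3 at chr2:119799264-119799513. Capitals mark matches to TGANTCA, the core bound by AP-1, or GGAATG, the core bound by TEAD factors.
Axl: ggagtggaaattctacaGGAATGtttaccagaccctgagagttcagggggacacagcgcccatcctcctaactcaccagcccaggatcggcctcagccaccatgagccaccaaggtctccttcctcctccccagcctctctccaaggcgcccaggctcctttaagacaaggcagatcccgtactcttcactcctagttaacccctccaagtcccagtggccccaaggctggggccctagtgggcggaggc
Pros1: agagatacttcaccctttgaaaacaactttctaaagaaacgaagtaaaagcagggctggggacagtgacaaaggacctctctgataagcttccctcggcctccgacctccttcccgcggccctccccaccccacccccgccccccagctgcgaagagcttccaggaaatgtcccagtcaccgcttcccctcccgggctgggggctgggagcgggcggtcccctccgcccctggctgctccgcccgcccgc
Met: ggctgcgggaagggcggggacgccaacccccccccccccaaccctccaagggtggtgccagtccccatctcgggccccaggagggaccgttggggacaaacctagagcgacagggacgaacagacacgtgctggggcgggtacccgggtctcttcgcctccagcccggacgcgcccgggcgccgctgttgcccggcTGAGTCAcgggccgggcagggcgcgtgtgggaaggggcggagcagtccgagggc
Tyro3: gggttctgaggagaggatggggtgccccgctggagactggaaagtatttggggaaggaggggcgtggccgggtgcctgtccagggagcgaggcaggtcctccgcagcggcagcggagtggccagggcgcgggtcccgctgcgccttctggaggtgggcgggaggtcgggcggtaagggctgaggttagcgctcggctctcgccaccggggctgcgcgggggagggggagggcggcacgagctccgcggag
Both strands were searched. The Met stretch holds 1 match to TGANTCA, from 54 to 48 bases before the start, and 6.749% of 32851 upstream stretches of the same length hold one. The Axl stretch holds 1 match to GGAATG, from 233 to 228 bases before the start, as 12.64% of all stretches hold, and Pros1 and Tyro3 hold neither. GGGCGG, the core bound by SP factors and present in 32.74% of all stretches, occurs 1 time in Axl, 5 times in Pros1 and 3 times each in Met and Tyro3. GC content was 64.4% for Pros1, 74.0% for Met and 73.2% for Tyro3 and was lowest for Axl, which like the others lay above the median of 52.4% over all stretches.

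Axl, the TAM receptor often found at high levels in invasive tumours, was lowest in nerve and higher in neurofibroma, and most MPNST libraries were higher still. It stood at 19.15 to 917.1 CPM in MPNST (median 345.7), at 76.06 to 134.6 CPM in neurofibroma (96.25) and at 21.88 to 51.99 CPM in nerve (40.09). MPNST libraries 1, 3, 4 and 5 held 458.7, 232.7, 917.1 and 537.6 CPM, above every neurofibroma and nerve library. The library labelled MPNST 6 held 39.82 CPM, within the nerve range. MPNST library 2 held 19.15 CPM, below every nerve library, but its place depended on the scaling. Scaled by TMM, which offsets the counts taken by salivary genes, it held 50.2 CPM, below every neurofibroma library (72.81 to 131.2 CPM) and above every nerve library (21.68 to 48.04 CPM). Neurofibroma and nerve did not overlap, as was true of 6.05% of all genes tested. The log2 change was 1.37 in neurofibroma against nerve (SE 0.20, adjusted p = 0.00223, edgeR, n = 6 each), a 2.588-fold difference. It stayed called whichever library was left out (1.24 to 1.47), and lost its call where all 18 samples shared one fit (1.40, adjusted p = 0.515).

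Against neurofibroma, the log2 change of Axl in MPNST was 1.91 (SE 0.63, adjusted p = 0.028, edgeR), with 4 of 6 MPNST libraries above all neurofibroma libraries and 2 below. Without libraries 2 and 6 it was 2.40 (SE 0.297, adjusted p = 7.68e-05). The call was lost without MPNST library 4 (1.46, adjusted p = 0.067), without neurofibroma library 1, 2, 3, 5 or 6 (adjusted p from 0.0503 to 0.0608), or with no filter on low counts (1.79, adjusted p = 0.054). Against nerve the change in MPNST was 3.28 (SE 0.67, adjusted p = 0.00226), a 9.706-fold difference, and 3.81 without libraries 2 and 6. That call was kept whichever library was left out and in every other setting tried.

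Mertk, the TAM receptor of macrophage uptake of dying cells, was not called in any comparison. Its levels were 2.305 to 107.3 CPM in MPNST (median 22.86), 28.47 to 50.15 CPM in neurofibroma (37.49) and 19.65 to 52.82 CPM in nerve (31.94). MPNST library 4 was above, and the library labelled MPNST 6 and libraries 2 and 3 were below, every library of both other groups. Scaled by TMM, library 2 held 26.48 CPM, below every neurofibroma library (28.12 to 48.11 CPM) and within the nerve range (18.09 to 50.46 CPM). The log2 changes were 0.24 in neurofibroma against nerve (SE 0.22, adjusted p = 0.474), -0.02 in MPNST against neurofibroma (SE 0.59, adjusted p = 0.979) and, for MPNST against nerve, 0.21 (SE 0.61, adjusted p = 0.794). An interval of 2 SE either side runs from -1.20 to 1.16 in MPNST against neurofibroma, so differences of about that size cannot be told from no difference.

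Tyro3, a TAM receptor prominent in the nervous system, fell in MPNST. It stood at 6.088 to 33.92 CPM in MPNST (median 9.122), at 42.13 to 53.48 CPM in neurofibroma (46.62) and at 48.03 to 66.97 CPM in nerve (56.24). All 6 MPNST libraries were below all 12 other libraries, and 18.49% and 18.42% of all genes tested had no overlap between MPNST and neurofibroma and between MPNST and nerve. MPNST library 4 and the library labelled MPNST 6 were the highest of their group, at 33.92 and 28.45 CPM, and the other 4 were at 6.088 to 9.186 CPM. Scaled by TMM, library 2, the lowest of these, held 15.96 CPM, and libraries 1, 3 and 5 held 7.931 to 9.837 CPM. The log2 change was -1.40 in MPNST against neurofibroma (SE 0.34, adjusted p = 0.00644, edgeR) and, for MPNST against nerve, -1.69 (SE 0.34, adjusted p = 0.00214). Without libraries 2 and 6 the changes were -1.66 and -1.90, and both calls were kept whichever library was left out. In neurofibroma against nerve the log2 change was -0.28 (SE 0.09, adjusted p = 0.0558), with 4 of 6 neurofibroma libraries below every nerve library. That difference was called by DESeq2 (adjusted p = 0.0203), by limma-voom (0.0276), when genes had to reach 1 CPM in 6 samples (0.0346), and without neurofibroma library 3 (0.0479), nerve library 1 (0.0256) or nerve library 6 (0.0473).

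The make-up of the TAM receptor transcripts differed accordingly. Shares were taken of the summed CPM per kilobase, using each gene's longest protein-coding transcript. Axl made up 54.73 to 92.23% in MPNST (median 88.73%), 46.68 to 60.69% in neurofibroma (53.21%) and 20.28 to 40.64% in nerve (30.61%). Tyro3 made up 1.407 to 39.25% in MPNST (3.222%), 18.79 to 30.52% in neurofibroma (26.02%) and 33.32 to 49.21% in nerve (45.06%). Shares do not depend on a library's total. Neither share overlapped between neurofibroma and nerve. MPNST library 2 (Axl 54.73%) and the library labelled MPNST 6 (57.45%) lay within the Axl range of neurofibroma, and the other 4 MPNST libraries were at 86.85% or more.

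**Figure D2:**
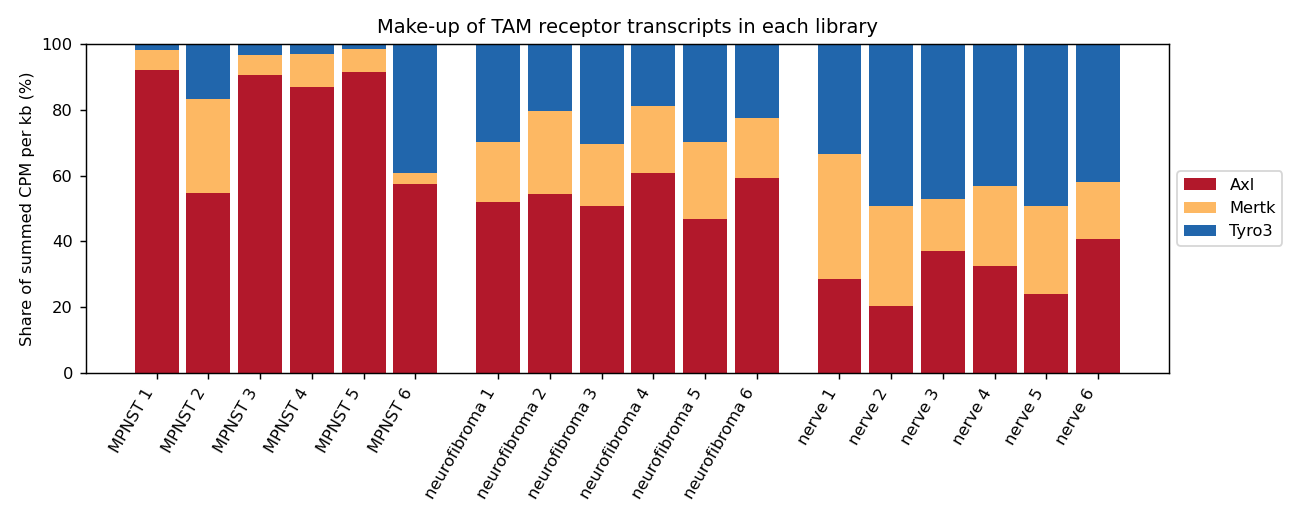
Share (%) of Axl, Mertk and Tyro3 in their summed CPM per kilobase, 1 bar per library, with MPNST on the left, neurofibroma next and nerve on the right. The Axl part takes 86.85 to 92.23% of the bar in MPNST libraries 1, 3, 4 and 5 and 20.28 to 40.64% in nerve.

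Gas6, the ligand of all the TAM receptors, was not called in any comparison. Its levels were 23.84 to 170.2 CPM in MPNST (median 78.33), 123.9 to 162.2 CPM in neurofibroma (141.1) and 136.4 to 191.2 CPM in nerve (174.3). Libraries 2, 4 and 6 of MPNST held 37.12, 34.47 and 23.84 CPM, below every other library in the study (97.29 CPM for library 2 when scaled by TMM), and libraries 1, 3 and 5 held 119.5 to 170.2 CPM. The log2 changes were -0.24 in neurofibroma against nerve (SE 0.09, adjusted p = 0.103), -0.39 in MPNST against neurofibroma (SE 0.44, adjusted p = 0.5) and, for MPNST against nerve, -0.64 (SE 0.45, adjusted p = 0.264). The small neurofibroma difference was called by limma-voom (-0.30, adjusted p = 0.0212) and when nerve library 6 was left out (-0.29, adjusted p = 0.0253).

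Pros1, the gene of protein S, a TAM ligand and anticoagulant cofactor, rose in both tumour groups. It stood at 12.13 to 159.3 CPM in MPNST (median 116.1), at 29.92 to 51.28 CPM in neurofibroma (42.2) and at 11.26 to 31.04 CPM in nerve (22.78). In MPNST it followed the split seen for Axl, with libraries 1, 3, 4 and 5 at 103.8 to 159.3 CPM, above all other libraries, and libraries 2 and 6 at 12.13 and 15.04 CPM, within the nerve range. Scaled by TMM, library 2 held 31.8 CPM, within the neurofibroma range (28.65 to 49.99 CPM) and above every nerve library (11.16 to 28.68 CPM). The log2 change in neurofibroma against nerve was 0.90 (SE 0.21, adjusted p = 0.0169, edgeR), with 5 of 6 neurofibroma libraries above every nerve library. It stayed called whichever library was left out and lost its call in one fit of all 18 samples (0.93, adjusted p = 0.613).

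Set against neurofibroma, Pros1 had a log2 change of 1.31 in MPNST (SE 0.47, adjusted p = 0.0422), close to the threshold. Leaving out any 1 library other than MPNST 2 or 6 ended that call (adjusted p from 0.0615 to 0.0888), as did RLE scaling (1.24, 0.0501) and no filter on low counts (1.18, 0.0872). Without libraries 2 and 6 the change was 1.72 (SE 0.179, adjusted p = 2.44e-05). Against nerve it was 2.21 (SE 0.50, adjusted p = 0.00401), and 2.68 without libraries 2 and 6, and was called in every setting.

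The balance of the TAM ligands also differed between the groups. On the scale of CPM per kilobase, Gas6 stood at 0.2959 to 3.966 times the level of Pros1 in MPNST (median 1.639), at 3.551 to 6.621 times in neurofibroma (4.104) and at 5.697 to 19.68 times in nerve (10.49). In MPNST library 4 alone Gas6 was below Pros1. The ranges overlapped between neighbouring groups, and MPNST and nerve did not overlap.

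Met, the receptor of hepatocyte growth factor, rose in MPNST. Its levels were 0.5763 to 102.2 CPM in MPNST (median 24.79), 5.369 to 11.28 CPM in neurofibroma (6.909) and 2.705 to 8.903 CPM in nerve (3.744). In contrast to Axl and Pros1, MPNST library 2 lay with the high libraries, and 5 of 6 MPNST libraries, at 18.54 to 102.2 CPM, were above all 12 others. Library 2 held 23.17 CPM, and 60.72 CPM when scaled by TMM. Salivary gland genes took 40.52% of its counts, and the part of that tissue in its Met level was not tested. The library labelled MPNST 6 held 0.5763 CPM (11 counts), the lowest value in the study. The log2 change was 2.48 in MPNST against neurofibroma (SE 0.77, adjusted p = 0.0213, edgeR) and, for MPNST against nerve, 3.10 (SE 0.82, adjusted p = 0.00895), a 5.581-fold and an 8.594-fold difference. Without libraries 2 and 6 the changes were 2.56 and 3.22. Both calls were kept whichever library was left out, with an adjusted p of up to 0.0481 against neurofibroma and 0.0235 against nerve (edgeR). In neurofibroma against nerve the log2 change was 0.63 (SE 0.33, adjusted p = 0.212), with 2 of 6 neurofibroma libraries above every nerve library.

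Hgf, which encodes the ligand of Met, was not called in any comparison. It stood at 0.4715 to 27.35 CPM in MPNST (median 4.496), at 5.716 to 10.78 CPM in neurofibroma (7.7) and at 4.714 to 12.52 CPM in nerve (9.597). MPNST library 4, which held the highest Met, also held the highest Hgf, at 27.35 CPM, while the other 5 MPNST libraries were below every neurofibroma library. The log2 changes were -0.18 in neurofibroma against nerve (SE 0.23, adjusted p = 0.627), 0.04 in MPNST against neurofibroma (SE 0.65, adjusted p = 0.966) and, for MPNST against nerve, -0.16 (SE 0.67, adjusted p = 0.862). Without MPNST library 4 the change against neurofibroma was -0.85 (adjusted p = 0.194).

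Mst1r, the receptor of macrophage-stimulating protein, was the lowest of the 8 genes by mean CPM. Its levels were 0.2537 to 7.084 CPM in MPNST (median 5.939), 1.761 to 3.033 CPM in neurofibroma (2.017) and 1.375 to 7.24 CPM in nerve (3.323). MPNST libraries 1, 3, 4 and 5 held 5.758 to 7.084 CPM, above all neurofibroma libraries, and MPNST library 2 held 0.2537 CPM (6 counts). Set against neurofibroma, the log2 change of Mst1r in MPNST was 1.14 (SE 0.47, adjusted p = 0.0699). It was called by DESeq2 (1.08, adjusted p = 0.0385), by limma-voom (1.38, 0.0042), without MPNST library 2 (1.34, 0.00808), without the library labelled MPNST 6 (1.30, 0.0271) and without both (1.53, 0.000256). Without both, 5 of the 8 genes were thus called in this comparison, beside 59.22% of all 17280 genes tested. The log2 changes were -0.77 in neurofibroma against nerve (SE 0.37, adjusted p = 0.17) and, for MPNST against nerve, 0.35 (SE 0.56, adjusted p = 0.624). Nerve spanned the ranges of both other groups except the lowest MPNST value.

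**Figure D3:**
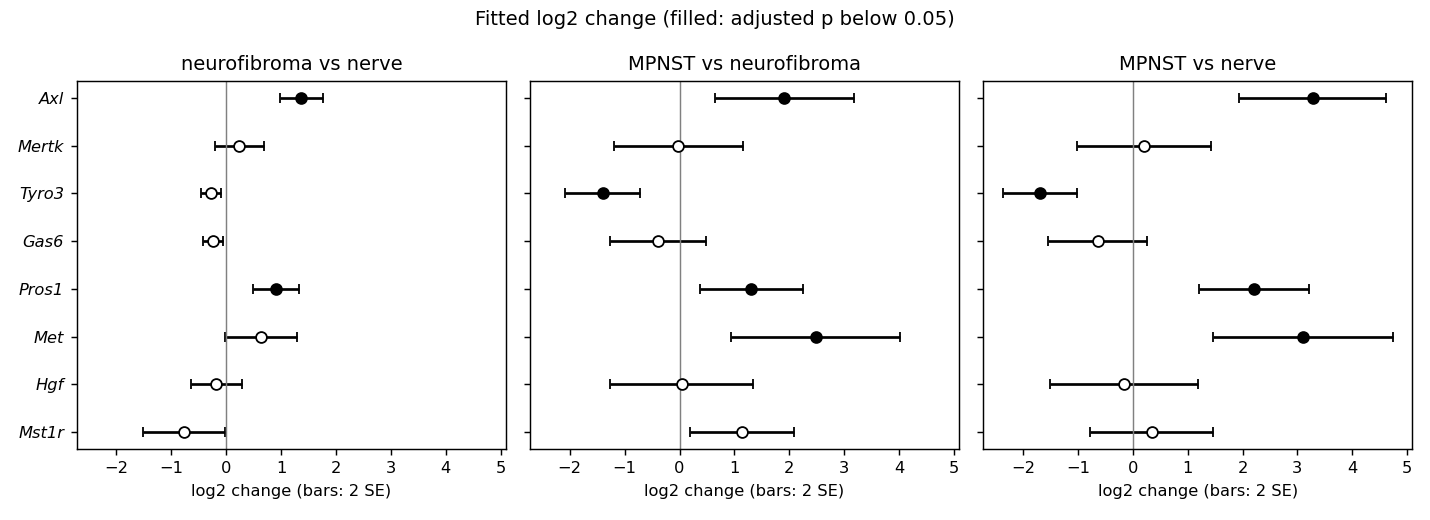
Fitted log2 change of the 8 genes in the 3 comparisons, with bars of 2 SE either side and filled points for an adjusted p below 0.05. Axl and Pros1 are filled and above 0 in all 3 panels, Met is filled in both panels with MPNST, and Tyro3 is filled and below 0 there.

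**Figure D4:**
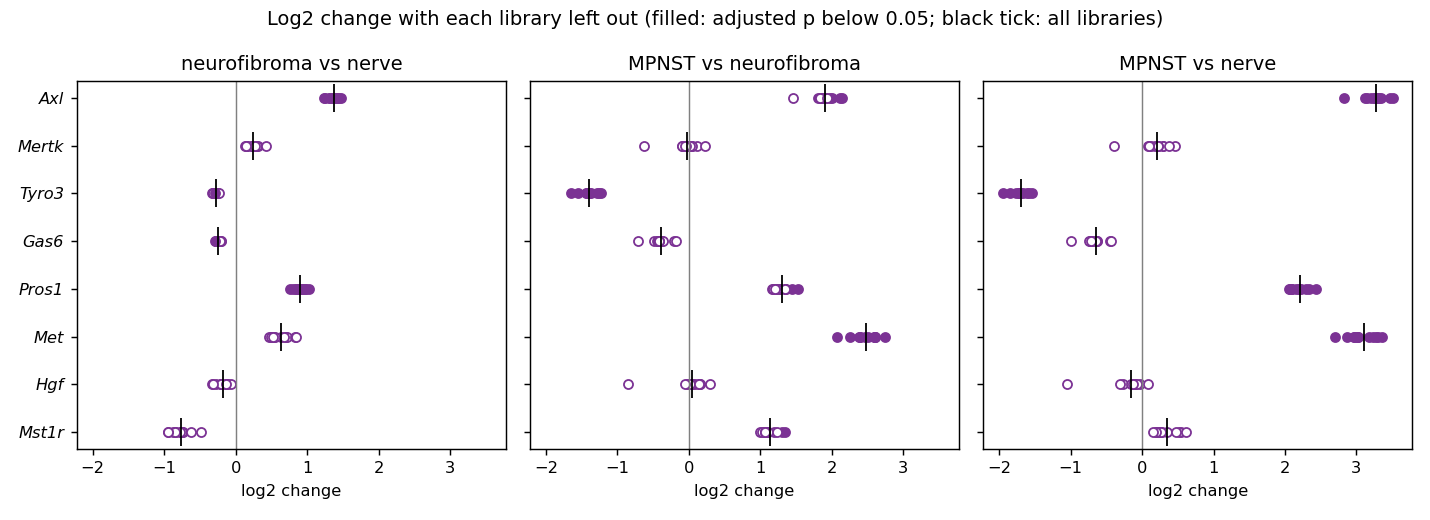
Log2 change of each gene with 1 library left out at a time (12 fits per comparison; filled points have an adjusted p below 0.05, the black tick is the fit of all libraries). In MPNST against neurofibroma the points of Axl (1.46 to 2.15) and Pros1 (1.16 to 1.53) are partly open, whereas those of Met (2.08 to 2.74) and Tyro3 (-1.65 to -1.23) are all filled.

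Levels between the genes were compared per length, as CPM per kilobase. Axl had the highest mean of the 8 in MPNST, at 86.2 ± 80.3 CPM per kilobase (SD, n = 6), followed by Gas6 at 35.0 ± 25.6 and Pros1 at 28.75 ± 19.96, and these overlap. In neurofibroma Gas6 led at 55.72 ± 4.811, and no other gene reached its lowest value of 48.61, with Axl next at 23.38 ± 5.436. In nerve Gas6 led at 65.48 ± 8.3, with Tyro3 at 12.82 ± 1.394 and Axl at 9.013 ± 2.492 behind it. Met was at 5.282 ± 5.205 in MPNST, 1.158 ± 0.3894 in neurofibroma and 0.7528 ± 0.4122 in nerve. Mst1r stayed at or below 1.533 CPM per kilobase in every library.

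Macrophage and fibroblast lists held genes called higher in every comparison, as Axl and Pros1 were, whereas Mertk, Gas6 and Hgf were called in none. Beside these and the later lists, 13.9% of all genes were called in neurofibroma against nerve (20.79% without nerve library 6 and neurofibroma library 1). The share was 42.0% in MPNST against neurofibroma and 46.0% in MPNST against nerve (59.22% and 60.7% without libraries 2 and 6). Macrophage genes, relevant because macrophages carry Mertk and Axl, had 15 of 15 tested higher in MPNST against neurofibroma, 14 of 15 higher in MPNST against nerve and 5 of 15 higher in neurofibroma against nerve. Their summed level was 222.1 to 3869 CPM in MPNST, 168.5 to 379.2 CPM in neurofibroma and 51.53 to 250.1 CPM in nerve. Fibroblast and perineurium genes had 7 of 13 higher in MPNST against neurofibroma, 8 of 13 higher and 1 lower in MPNST against nerve, and 6 of 13 higher in neurofibroma against nerve. Their sum was 800.6 to 16570 CPM in MPNST, 1665 to 3709 CPM in neurofibroma and 355.5 to 1465 CPM in nerve. MPNST libraries 1, 3, 4 and 5, high in Axl and Pros1, were the highest in the fibroblast sum, at 10180 to 16570 CPM against 800.6 CPM in library 2 (2098 CPM when scaled by TMM) and 1041 CPM in the library labelled MPNST 6. For macrophage genes libraries 1, 4 and 5 held 2916, 2411 and 3869 CPM and the library labelled MPNST 6 held 222.1 CPM. The order of libraries 2 and 3 in the macrophage sum depended on the scaling, with 282.5 and 569.2 CPM unscaled and 740.4 and 618.1 CPM scaled by TMM. MPNST library 4, with the most Axl, Mertk, Met and Hgf, also held Pdgfra, a fibroblast marker, at 1497 CPM. Its Sox10, at 5.324 CPM, was the lowest of its group. The defining macrophage markers Adgre1, Csf1r and Cd68 and fibroblast markers Pdgfra, Pdgfrb and Col1a1 were at 0 in no library.

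Schwann cell genes had 7 of 14 lower in MPNST against neurofibroma, 7 of 14 lower in MPNST against nerve and 6 of 14 higher in neurofibroma against nerve. They summed to 205.3 to 3332 CPM in MPNST, 14660 to 24020 CPM in neurofibroma and 6783 to 16430 CPM in nerve. Sensory neuron genes, whose sum was 6.13 to 4029 CPM in MPNST, 9567 to 12160 CPM in neurofibroma and 7863 to 14430 CPM in nerve, had 8 of 12 lower in MPNST against neurofibroma. They also had 9 of 12 lower in MPNST against nerve and 1 of 12 lower in neurofibroma against nerve (3 without nerve library 6 and neurofibroma library 1). Tyro3, the neuron sum and the Schwann cell sum were each lower in every MPNST library than in any other library. Any link between them was not tested, and values within the MPNST group were as follows. MPNST library 4, with the most Tyro3 (33.92 CPM), had a neuron sum of 85.99 CPM and the second lowest Schwann sum, 239.4 CPM (the lowest, 214.0 CPM, when scaled by TMM). The library labelled MPNST 6, next in Tyro3, had a neuron sum of 4029 CPM, and library 1, with the highest Schwann sum (3332 CPM), held 9.186 CPM of Tyro3. In no MPNST library did the sensory markers Scn10a and Calca exceed 1.141 and 2.682 CPM. The 4029 CPM thus came mostly from other genes of the list, among them Nefl (up to 1498 CPM in MPNST). Endothelial genes had 4 of 10 higher in MPNST against neurofibroma (9 of 10 without libraries 2 and 6), 5 of 10 higher and 1 lower in MPNST against nerve (7 and 0 without them), and 0 of 10 called in neurofibroma against nerve. Their sum was 118.3 to 972.2 CPM in MPNST, 144.4 to 222.3 CPM in neurofibroma and 126.2 to 296.4 CPM in nerve. Epithelial genes, relevant because epithelia carry Met and Mst1r, had 3 of 4 tested higher in MPNST against neurofibroma (1 higher and 1 lower without libraries 2 and 6), 1 of 2 higher in MPNST against nerve (1 higher and 1 lower without them) and 0 of 1 called in neurofibroma against nerve. They summed to 5.547 to 610.8 CPM in MPNST, with library 2 highest, 206.8 to 225.7 CPM in neurofibroma and 126.7 to 229.3 CPM in nerve. Outside MPNST that sum was mostly Cdh1, at 0.9955 to 87.01 CPM in MPNST, 188.3 to 222.6 CPM in neurofibroma and 125.2 to 228.3 CPM in nerve. The defining markers Epcam, Krt8 and Krt18 reached 138.2, 111.9 and 247.0 CPM in MPNST, against 4.244, 3.886 and 7.261 CPM in neurofibroma and 0.4583, 0.769 and 0.5893 CPM in nerve. Krt8 was at 0 in 2 MPNST libraries, and Krt18 was at 0 in 1 neurofibroma and 2 nerve libraries. The part of these cell types in the levels of the 8 genes was not tested.

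**Figure D5:**
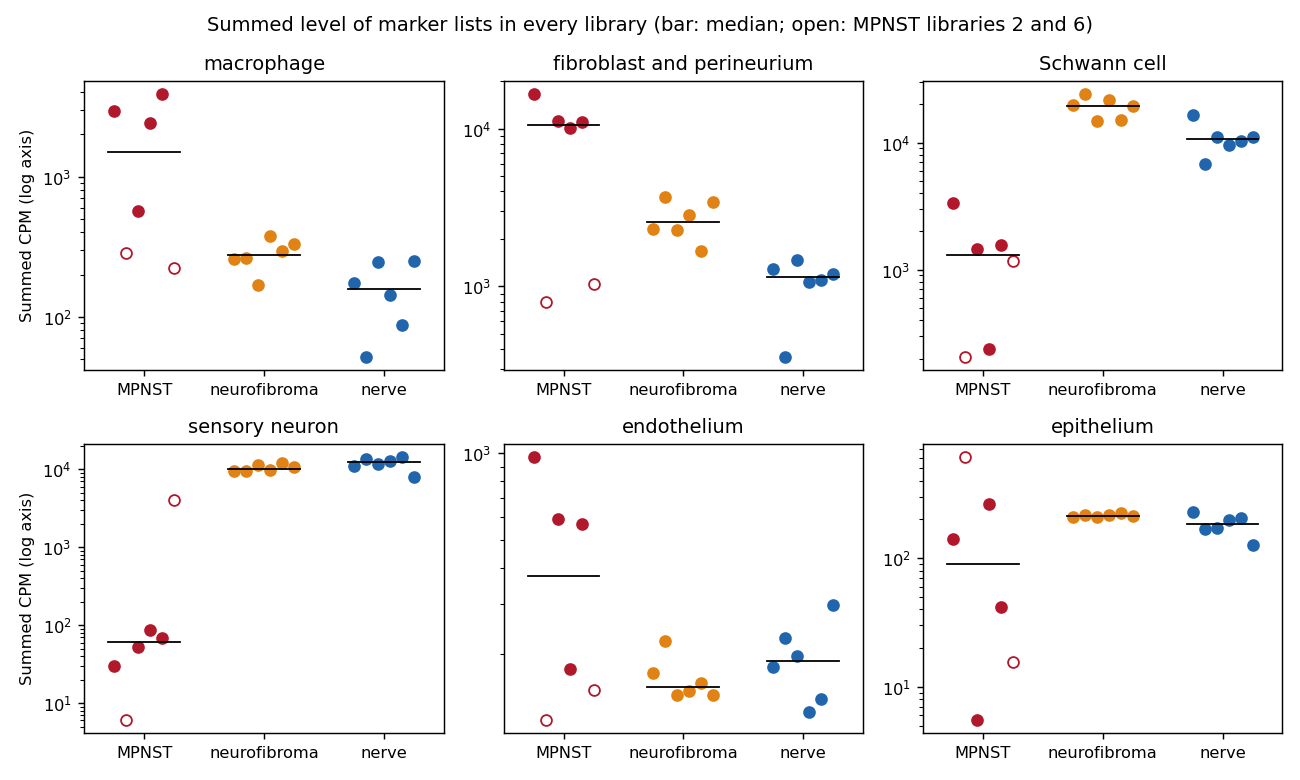
Summed CPM (log axes) of 6 marker lists in every library, with the group median as a bar and MPNST libraries 2 and 6 as open points. Macrophage sums reach 3869 CPM and fibroblast sums 16570 CPM in MPNST, whereas both open points lie at or below 1041 CPM in the fibroblast panel, on totals that include the salivary counts of library 2.

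Among all receptor tyrosine kinases, of which 53 of 58 were tested, Axl had the highest log2 change in neurofibroma against nerve. In all, 4 rose and 5 fell there, 16.98% called beside 13.9% of all genes (9 and 7 without nerve library 6 and neurofibroma library 1, 30.19% beside 20.79%). The ephrin receptors Ephb3 (1.18, SE 0.26, adjusted p = 0.0128) and Ephb6 (1.19, SE 0.27, adjusted p = 0.0148) rose, and the kinase Lmtk2 (-0.67, SE 0.10) and the ephrin receptor Epha6 (-0.92, SE 0.21) fell. Of 52 tested in MPNST against neurofibroma, 14 rose and 7 fell (40.38% called, beside 42.0% of all genes), and Met ranked 4 and Axl 8 by log2 change. Of 53 tested in MPNST against nerve, 16 rose and 7 fell (43.4%, beside 46.0%), with Axl at rank 3 and Met at rank 4. The share of receptor kinases called was thus near that of all genes in both comparisons. Without libraries 2 and 6, 22 of 53 rose and 13 fell against neurofibroma (66.04%, beside 59.22% of all genes), and 19 of 54 rose and 15 fell against nerve (62.96%, beside 60.7%). The insulin receptor gene Insr was at 100.4 ± 25.09 CPM in MPNST, 38.94 ± 2.405 in neurofibroma and 46.24 ± 4.595 in nerve (SD, n = 6 each), and rose in MPNST against both (1.69, SE 0.21, and 1.42, SE 0.22). The WNT co-receptor gene Ryk also rose against both (0.98, SE 0.20, and 1.39, SE 0.21). Epha6 fell in MPNST against neurofibroma (-6.79, SE 0.74), as did Ephb1 (-2.86, SE 0.69), and Epha6 also fell in MPNST against nerve (-7.71, SE 0.79).

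Genes that mature or activate the ligands mostly rose where they were called. Of 8 tested in neurofibroma against nerve, 3 rose and 1 fell. Vkorc1, which recycles the vitamin K needed to carboxylate Gas6 and protein S, rose by 0.61 (SE 0.10, adjusted p = 0.00408), the plasminogen activator gene Plat rose by 0.70 (SE 0.16), and the proprotein convertase gene Furin fell by 0.36 on the log2 scale (SE 0.11, adjusted p = 0.0458). The call of Furin was lost without neurofibroma library 1, 2, 3, 4 or 6 or nerve library 2, 3, 4 or 5 (adjusted p from 0.0518 to 0.08). Of 9 tested in MPNST against neurofibroma, 6 rose and 0 fell. Hpn, the protease hepsin that can cleave the Hgf precursor, rose by 2.10 (SE 0.53) and the urokinase gene Plau by 3.87 (SE 0.98), with Plau at 142.5 ± 248.6 CPM in MPNST against 9.667 ± 1.77 CPM in neurofibroma. Of 8 tested in MPNST against nerve, 7 rose and 0 fell, among them Vkorc1 (1.31, SE 0.22) and the carboxylase gene Ggcx (1.04, SE 0.23). Without libraries 2 and 6, 7 rose and 1 fell in each comparison with MPNST. The gene that fell, named after its values were seen, was Vkorc1l1, a relative of Vkorc1 (-0.52, SE 0.18, adjusted p = 0.0292 against neurofibroma, and -0.64, SE 0.18, adjusted p = 0.0107 against nerve). The median log2 change of the list was 0.43, 0.71 and 1.57 in these comparisons, where that of all genes was -0.02, 0.22 and 0.22.

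Of 14 genes that shed or dampen these receptors, 3 rose and 1 fell in neurofibroma against nerve, 8 rose and 1 fell in MPNST against neurofibroma, and 9 rose in MPNST against nerve. The shares called were 28.57%, 64.29% and 64.29%, beside 13.9%, 42.0% and 46.0% of all genes, and the medians were 0.51, 1.23 and 1.71. Adam17, a protease that sheds receptors from the surface, rose in neurofibroma against nerve (0.89, SE 0.16) and in MPNST against nerve (2.04, SE 0.33). Adam10, a sheddase that can cleave Axl, stood at 123.1 ± 62.44 CPM in MPNST and 297.0 ± 42.46 CPM in neurofibroma and fell (-1.12, SE 0.22, adjusted p = 0.00194). The phosphatase gene Ptprj rose (0.83, SE 0.17) and the ubiquitin ligase gene Cblb fell (-0.38, SE 0.09) in neurofibroma against nerve. Ptpn1, a tyrosine phosphatase that acts on Met, rose in MPNST against neurofibroma (1.82, SE 0.19) and against nerve (2.03, SE 0.21), and its relative Ptpn2 rose in MPNST against neurofibroma (1.37, SE 0.25).

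Partners and adaptors of the receptors moved both ways. Of 23, 2 rose and 3 fell in neurofibroma against nerve, 3 rose and 4 fell in MPNST against neurofibroma (5 and 6 without libraries 2 and 6), and 5 rose and 3 fell in MPNST against nerve. With all libraries the shares called were 21.74%, 30.43% and 34.78%, beside 13.9%, 42.0% and 46.0% of all genes. The medians were -0.04, 0.03 and 0.11, below those of all genes in both comparisons with MPNST. The focal adhesion kinase gene Ptk2 rose in neurofibroma against nerve (0.92, SE 0.28, adjusted p = 0.0469) and, with MPNST against nerve, again (1.30, SE 0.33), and the laminin receptor gene Itga6 rose in neurofibroma against nerve (0.76, SE 0.23). The plexin gene Plxnb2, whose product can associate with Met, rose in MPNST against neurofibroma (1.75, SE 0.32) and against nerve (2.51, SE 0.40), and the phospholipase gene Plcg1 rose in MPNST against neurofibroma (1.13, SE 0.24). Elmo1, which acts in RAC activation during uptake of dying cells, fell in neurofibroma against nerve (-0.63, SE 0.18), MPNST against neurofibroma (-1.67, SE 0.44) and MPNST against nerve (-2.31, SE 0.47). The RAS exchange factor gene Sos1 fell in the same comparisons (-0.43, SE 0.13; -0.99, SE 0.29; -1.43, SE 0.31). In neurofibroma against nerve the call of Ptk2 was lost on leaving out any 1 library but neurofibroma 2 or nerve 1 (adjusted p from 0.0522 to 0.116), that of Itga6 any but neurofibroma 5 or nerve 1 (0.0558 to 0.107), and that of Sos1 any but neurofibroma 3 or nerve 6 (0.051 to 0.0922). That of Elmo1 was lost without neurofibroma library 2, 4, 5 or 6 or nerve library 3, 4 or 5 (0.0656 to 0.0896).

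Other genes of the uptake of dying cells mostly rose where they were called. Of 22, 5 rose in neurofibroma against nerve (10 without nerve library 6 and neurofibroma library 1), 13 in MPNST against neurofibroma and 16 in MPNST against nerve, and 0 fell. With libraries 2 and 6 left out, 17 of 23 rose and 1 fell in MPNST against neurofibroma, and 19 of 23 rose and 1 fell in MPNST against nerve. The gene that fell, also named after its values were seen, was Adgrb1, which encodes an engulfment receptor (-6.55, SE 0.89, adjusted p = 0.000136, and -7.04, SE 0.94, adjusted p = 0.000116). With all libraries the shares called were 22.73%, 59.09% and 72.73%, beside 13.9%, 42.0% and 46.0% of all genes, and the medians were 0.63, 1.82 and 2.45. The integrin gene Itgav rose in neurofibroma against nerve, at 160.6 ± 31.0 CPM against 71.23 ± 27.21 CPM (1.17, SE 0.21), as did the engulfment receptor gene Megf10 (0.63, SE 0.13). Cd300lf, a phosphatidylserine receptor of myeloid cells, stood at 11.11 ± 10.3 CPM in MPNST, 0.6232 ± 0.3005 CPM in neurofibroma and 0.6481 ± 0.2226 CPM in nerve and rose in MPNST against both (4.22, SE 0.70, and 4.14, SE 0.66). Jmjd6, a nuclear hydroxylase first described as a phosphatidylserine receptor, rose against both as well (0.94, SE 0.16, and 1.08, SE 0.15). The macrophage genes that were called also rose in every comparison, as given above, and any link between the lists was not tested.

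The genes whose profiles were most like each member were found by the root mean square difference of mean-centred log2 values over the 18 samples, among 14759 genes. This is a description, since all profiles share the same libraries and their cell make-up. For Axl they were Eva1b (0.36), Fkbp10 (0.41), which encodes a collagen chaperone, and Mdfic (0.41), and for Pros1 they were Tmem198b (0.30), Eva1b (0.32) and Mdfic (0.33), so 2 genes stand in both sets. Tyro3 was closest to Atp6v1e1 (0.22) and Atp6v1a (0.24), subunits of the vacuolar proton pump, and Akap11 (0.26). Gas6 was closest to Epas1 (0.32), H1f2 (0.33) and Rhbdl3 (0.34). Mertk lay nearest to Csgalnact1 (0.34), Steap3 (0.46) and Selenop (0.48), and Hgf to Nectin3 (0.35), Ctsl (0.39) and Csgalnact1 (0.44). For Met the nearest were Lefty1 (0.65), Wls (0.68) and Map3k8 (0.69), and for Mst1r Tbc1d1 (0.50), Msn (0.56) and Procr (0.57). The measure grows with a gene's own spread, and the members' own root mean square deviation was 0.8049 (Gas6) to 1.694 (Met).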

How the data were processed

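The authors deposited estimated counts (1 value per gene and library), not normalized. The submitters' processing notes name Salmon 1.4.0, DESeq2, FastQC and the build GRCm39, without settings or annotation. Per the labels' protocols the libraries were stranded and poly(A)-selected. Columns were matched to samples by name (0 unmatched), and library numbers follow sample order and pair nothing. Counts were rounded. Each comparison was fitted on its own 2 groups by the quasi-likelihood test of edgeR 4.0.16 (R 4.3.3; TMM scaling after filterByExpr; two-sided, adjusted over all genes tested), after the code was tested on simulated data. CPM use unscaled library totals unless TMM is named. Alternatives used limma 3.58.1, DESeq2 1.42.0, other scalings and filters, and left-out libraries.

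The 8 genes and the 16 lists (250 of 251 entries found) were chosen with earlier results of these data known, as were the fits without MPNST libraries 2, 3 and 6 and without nerve library 6 and neurofibroma library 1. From each pathway list the 2 called genes per direction with the smallest p were named, leaving out the 8 and 1 gene not reported here. Gas6 overlaps Tmem255b on the other strand (0.8933 CPM on average), and Mertk and Hgf overlap annotated genes at or below 0.207 CPM. Sequences and transcript lengths are of GRCm38 (RefSeq, GENCODE). Libraries of a group differed beyond sampling noise (chi-square per degree of freedom of 17.21 or more), so each counted as 1 sample. Intervals cover the spread between libraries; counting error alone bears on values of few counts.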

Additional observations from a re-analysis of the deposited data

Results flagged for a closer look

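Hgf in MPNST library 4 stood at 27.35 CPM, far from the other 5 MPNST libraries, which held 0.4715 to 5.329 CPM. Its gap to the next library was 0.8193 of the range of the group, above Dixon's critical ratio for 6 samples. This was the 1 value so marked among 24 groups screened (8 genes in 3 groups), and chance marks about 1 in 20. The same library held the highest Axl, Mertk, Tyro3 and Met of its group, at 917.1, 107.3, 33.92 and 102.2 CPM, and Pdgfra at 1497 CPM.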

How the results depend on the processing

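No paired analysis was possible because the labels carry no replicate numbers. In neurofibroma against nerve, the 2295 genes called were 1438 with no filter on low counts, 3509 with DESeq2, 4026 with limma-voom, 2 in one fit of all 18 samples and 520 at an adjusted p below 0.01. They were 1147 to 3817 with 1 library left out (lowest without neurofibroma library 4, highest without nerve library 6). The 2 members called were 4 with limma-voom, 0 in the fit of 18, 1 below 0.01 and 2 to 4 with 1 library left out. Where genes had to reach 1 CPM in 6 samples, 1197 genes were higher and 1298 lower. In MPNST against neurofibroma, the 6948 genes called were 4063 below 0.01 and 11247 without MPNST libraries 2, 3 and 6. The 4 members called were 2 with no filter, 1 below 0.01 and 2 to 5 with 1 library left out. In MPNST against nerve, the 7534 genes called were 4633 below 0.01, and the 4 members stayed at 4 in every setting.

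Sign changes occurred for Mertk and Hgf alone, which were not called under any setting. In MPNST against neurofibroma the Hgf change was -0.05 with RLE scaling and with DESeq2, -0.08 with no filter, -0.47 with limma-voom and -0.04 in the fit of 18. Leaving out 1 library gave -0.85 to 0.29 for Hgf (-0.85, -0.03 and -0.05 without MPNST library 4 and neurofibroma libraries 2 and 5) and -0.63 to 0.23 for Mertk. Mertk was 0.03 with upper quartile scaling, 0.00 with the 1 CPM filter, and 0.29 and 0.56 without MPNST libraries 2 and 6 and without 2, 3 and 6. Against nerve, leaving out 1 library gave -0.39 to 0.46 for Mertk (-0.39 without MPNST library 4) and -1.05 to 0.09 for Hgf (0.09 without the library labelled MPNST 6), and Hgf was 0.23 without 2 and 6, and 0.40 without 2, 3 and 6. Of the other values of single genes, 459 kept their direction and call, 14 gained a call and 25 lost one, with no change of direction. The cause was not tested. Of the 45 calls that the naming rule took from the pathway lists, 40 were kept whichever library was left out, and the other 5 were in neurofibroma against nerve, where the fit of all 18 samples called none of the 16 (lowest adjusted p = 0.315). Depth limits Met and Hgf in the library labelled MPNST 6 and Mst1r in MPNST library 2, at 11, 9 and 6 counts.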
